A study of Mus musculus with 11 samples.

Results

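*Th*, *Slc6a3* and *Dbh* are 3 genes of catecholamine neurons, and the open chromatin around them was examined in dopaminergic (DA) and serotonergic (5-HT) neurons of the mouse embryo. They were taken by name out of 22367 protein-coding genes. Of 131942 deposited regions, 15 overlapped the gene body of 1 of the 3 genes, extended by 20 kb on each side, by at least 1 bp. *Th* had 9 of these regions, *Slc6a3* had 3 and *Dbh* had 3. In ATAC-seq, a transposase cuts and tags accessible DNA, and a peak marks a place where such cuts gather. It was carried out on E14.5 embryos, with 3 DA libraries and 2 5-HT libraries, each from a separate sort of cells of several embryos.

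DA neurons were GFP-positive cells sorted from the ventral mesencephalon of TH-GFP embryos, whose transgene places GFP under the rat *Th* promoter. 5-HT neurons were YFP-positive cells sorted from hindbrain rhombomeres 1 to 3 of Mash1-CRE x ROSA YFP embryos, in which cells that have expressed the Cre, and their descendants, keep the YFP label. Transgenic males, of a line kept on C57BL/6J for TH-GFP, were mated with Swiss wild-type females in both cases. The DA cells were thus chosen by a *Th* promoter, and every DA library and no 5-HT library carried the rat *Th* sequence of the transgene. Peaks and not reads were examined here, so any reads of the transgene that aligned to mouse *Th* were not separated from reads of the gene itself.

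Tyrosine hydroxylase, encoded by *Th*, turns tyrosine into L-DOPA and is the rate-limiting enzyme for dopamine, noradrenaline and adrenaline alike. The dopamine transporter, encoded by *Slc6a3*, takes released dopamine back into the neuron and is a marker of dopaminergic rather than noradrenergic cells. Dopamine β-hydroxylase, encoded by *Dbh*, turns dopamine into noradrenaline, so it is used by noradrenergic neurons, such as those of the locus coeruleus in the hindbrain, and not by midbrain DA neurons.

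For each region and library the deposited data give a score on a scale that is not named, and a score of 0 stands for no peak. Values of DA libraries are given in the order of replicates 1, 2 and 3, and those of 5-HT libraries in the order of replicates 1 and 2. The DA libraries had 52861, 93055 and 94351 regions with a peak, and the 5-HT libraries 38772 and 22879. Every DA library therefore had more peaks than either 5-HT library, and the read depth behind them is unknown. By the authors' account, every DA library was also made from more sorted cells than either 5-HT library. The part of this in the absence of 5-HT peaks was not tested. For comparison between libraries, a score was turned into a percentile, the percent of the peaks of that library with a lower score, and no peak was counted as 0. A region was called DA-only when it had a peak in all 3 DA libraries and in neither 5-HT library. Counts were also made at equal numbers of peaks, with the 22879 highest-scoring peaks of each library. Promoter regions overlapped an annotated transcription start site (TSS) of the gene, the 1 kb before it or the 100 bp after it, and other regions were called distal.

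*Th* (ENSMUSG00000000214.4) lies on the minus strand of chromosome 7 (mm9), where its CCDS transcript of 13 exons runs from a TSS at 150085919 to 150078657. It had open regions in all 3 DA libraries and almost none in the 5-HT libraries. Its promoter region, chr7:150085765-150086150, spans the TSS and 143 bp of exon sequence. The DA libraries scored 9.91, 10.6 and 8.45 there, and both 5-HT libraries lacked a peak. These scores stood at percentiles 90.5, 91.7 and 89.3 of all peaks in their libraries. The 3 DA values were close to each other, far above both 5-HT values of 0, and among promoter peaks alone they stood at percentiles 75.8, 68.7 and 63.2. In bulk samples of sorted cells, a lower share of cells with an open promoter and a less open promoter in each cell cannot be told apart.

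The 8 distal regions of *Th* all lay between intron 9 and 19267 bp upstream of the TSS, and none lay beyond the 3′ end of the gene. Upstream of the TSS, 3 of them were DA-only. The nearest, chr7:150087224-150088380, begins 1305 bp upstream and is 1157 bp wide, and scored 8.94, 8.61 and 7.85 in the DA libraries, at percentiles 86.6, 85.5 and 87.0. The next, chr7:150088926-150089186, begins 3007 bp upstream and had scores of 7.95, 7.90 and 3.43. In this region DA replicate 3 was lower than the other 2, at percentile 31.3 of its peaks against 81.0 and 82.4. The region chr7:150093664-150094407, which begins 7745 bp upstream, had scores of 9.05, 8.74 and 8.79 and percentiles of 87.0, 86.0 and 90.4. At the promoter and at the regions 1305 and 7745 bp upstream the 3 DA libraries were nearly level. The annotation also lists putative *Th* transcripts with TSSs at 150117025 and 150117033, and these upstream regions lie between those TSSs and the TSS of the CCDS transcript. No peak of any library lay at the putative TSSs.

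Only 1 distal region of *Th* was shared with a 5-HT library. At chr7:150105186-150105445, 19267 bp upstream, the DA libraries scored 7.29, 7.66 and 6.23, 5-HT replicate 1 scored 5.72, and 5-HT replicate 2 had no peak. Its percentile in 5-HT replicate 1, 74.2, was near those in the DA libraries, 76.2, 81.2 and 77.8. This was the only peak of a 5-HT library around *Th*. The other 4 distal regions had peaks in 1 or 2 DA libraries only. A region with its centre in intron 9, chr7:150080617-150081113, had scores of 4.05 and 3.86 in DA replicates 2 and 3. The other 3, 1 with its centre in intron 1 and 127 of its 277 bp in exons and 2 upstream, had a peak in DA replicate 2 alone, with scores from 3.63 to 5.20.

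In all, *Th* had 5, 9 and 6 regions with a peak in DA libraries, against 1 and 0 for 5-HT. The mean was 6.67 ± 2.08 (SD, n = 3) in DA and 0.5 ± 0.707 (SD, n = 2) in 5-HT libraries, a difference of 6.17 regions (two-sided exact permutation test, p = 0.2). The groups did not overlap, as for 31.9% of all protein-coding genes. The promoter percentile differed by 90.5 points (90.5 ± 1.18, n = 3, against 0, n = 2; exact permutation test, p = 0.2). Promoter percentiles without overlap, higher in DA libraries, were found for 34.5% of protein-coding genes. With 3 against 2 libraries, p = 0.2 is the smallest value that the exact test allows, so none of the 5 tests made here could reach 0.05. Across the 14559 genes with a promoter peak, the median difference was 15.6 percentile points, and 6 genes, *Th* included, had a difference at least as large as that of *Th*.

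Of the 9 *Th* regions, 4 were DA-only, against 13.4% of all deposited regions. At least 4 DA-only regions were found around 3.67% of protein-coding genes. Among 4742 genes whose gene body with both flanks was within 1.25 times the length of that of *Th*, the median was 0 and 49 genes (1.03%) had 4 or more. At equal numbers of peaks, 3 of the 4 remained, namely the promoter and the regions 1305 and 7745 bp upstream, while the region 3007 bp upstream lost its peak in DA replicate 3. DA-only regions then made up 6.94% of all regions with a peak, and 0.174% of protein-coding genes had at least 3 of them. The promoter region of *Th* was DA-only in both settings, as were 2.13% of protein-coding gene promoters with all peaks and 0.469% at equal numbers.

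*Slc6a3* (ENSMUSG00000021609.6) lies on the plus strand of chromosome 13, from 73674195 to 73716120, with 15 exons and 1 annotated TSS. Its promoter was open in DA neurons, and weakly so in 1 of the 5-HT libraries. The promoter region, chr13:73673678-73674785, spans the TSS and is 1108 bp wide. The DA libraries scored 6.92, 4.80 and 4.46, 5-HT replicate 1 scored 3.43 and 5-HT replicate 2 had no peak. The DA scores stood at percentiles 73.0, 56.1 and 58.8, and the 5-HT score at 11.2. DA replicate 1 was the highest, and 5-HT replicate 1 was well below the lowest DA library. The difference was 57.0 percentile points (62.7 ± 9.07, n = 3, against 5.62 ± 7.94, n = 2; exact permutation test, p = 0.2). Among the 14559 genes with a promoter peak, 391 had a difference at least as large. Ranked among promoter peaks alone, the *Slc6a3* promoter stood lower, at percentiles 49.0, 22.9 and 22.0 in DA libraries and 3.36 in 5-HT replicate 1, and the difference was 29.6 points.

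Past the 3′ end of *Slc6a3*, 8859 bp from the end of the gene, a distal region at chr13:73724979-73725668 was DA-only. Its DA scores of 5.60, 6.01 and 5.70 stood at percentiles 57.7, 70.1 and 73.4, and neither 5-HT library had a peak. In DA replicates 2 and 3 this region ranked higher than the promoter, and in DA replicate 1 it ranked lower. A last region, with its centre in intron 14 at chr13:73714550-73714691, had a peak in DA replicate 3 alone, with a score of 3.20. No region lay between the promoter region and intron 14.

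*Slc6a3* thus had 2, 2 and 3 regions with a peak in DA libraries, against 1 and 0 for 5-HT, without overlap, as for 31.9% of protein-coding genes. Genes with a gene body and flanks of like length had medians of 3, 4 and 3 in DA and 2 and 1 in 5-HT libraries, so *Slc6a3* had no more peaks than such genes. The means of 2.33 ± 0.577 (n = 3) and 0.5 ± 0.707 (n = 2) differed by 1.83 (exact permutation test, p = 0.2). The difference was 0.833 for the gene body alone, 5 with 50 kb on each side and 0.667 at equal numbers of peaks. For the gene body alone, 5-HT replicate 1 had as many regions with a peak as DA replicates 1 and 2. At equal numbers, DA replicates 2 and 3 had none, like both 5-HT libraries. The groups were thus not apart in either of these settings. At equal numbers of peaks the promoter and the region past the 3′ end each kept a peak in DA replicate 1 only, and no region of *Slc6a3* was DA-only. With all peaks, 1 of its 3 regions was DA-only, and at least 1 such region was found around 36.7% of protein-coding genes. *Slc6a3* therefore had no more DA-only regions than is common among genes, unlike *Th*, although this difference between the genes was not tested.

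*Dbh* (ENSMUSG00000000889.7) lies on the plus strand of chromosome 2, from 27020753 to 27038720, with 12 exons in its CCDS transcript. It had no promoter region in any library, as was so for 34.9% of protein-coding genes, and no DA-only region. The only region inside the gene, chr2:27031176-27031602 in intron 6, had a score of 3.15 in DA replicate 2, at percentile 7.06. It ends upstream of a second annotated TSS, at 27032613, that of a non-coding *Dbh* transcript, and it counts as a promoter region when promoters are taken from 2 kb upstream. The other 2 lie upstream of *Dbh*, within the non-coding gene *Gm13399*. At chr2:27012114-27012791, 7962 bp upstream of the TSS, the scores were 3.95 and 3.33 in DA replicates 2 and 3, at percentiles 39.0 and 26.7. At chr2:27008935-27009154, 11599 bp upstream, 5-HT replicate 1 had a score of 3.37, the lowest of all its peaks.

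*Dbh* had 0, 2 and 1 regions with a peak in DA libraries, against 1 and 0 for 5-HT. The groups overlapped, with means of 1.0 ± 1.0 (n = 3) and 0.5 ± 0.707 (n = 2) and a difference of 0.5 (exact permutation test, p = 1), or 1.5 with 50 kb on each side. At equal numbers of peaks no library had any peak around *Dbh*, so none of its 4 peaks was among the 22879 strongest of its library. Parts of *Gm13399*, *Sardh* and *Gm17071* lie within 20 kb of *Dbh*, and no annotated TSS of these genes had a promoter peak. No other gene lies within 20 kb of *Th* or *Slc6a3*.

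**Figure D1:**
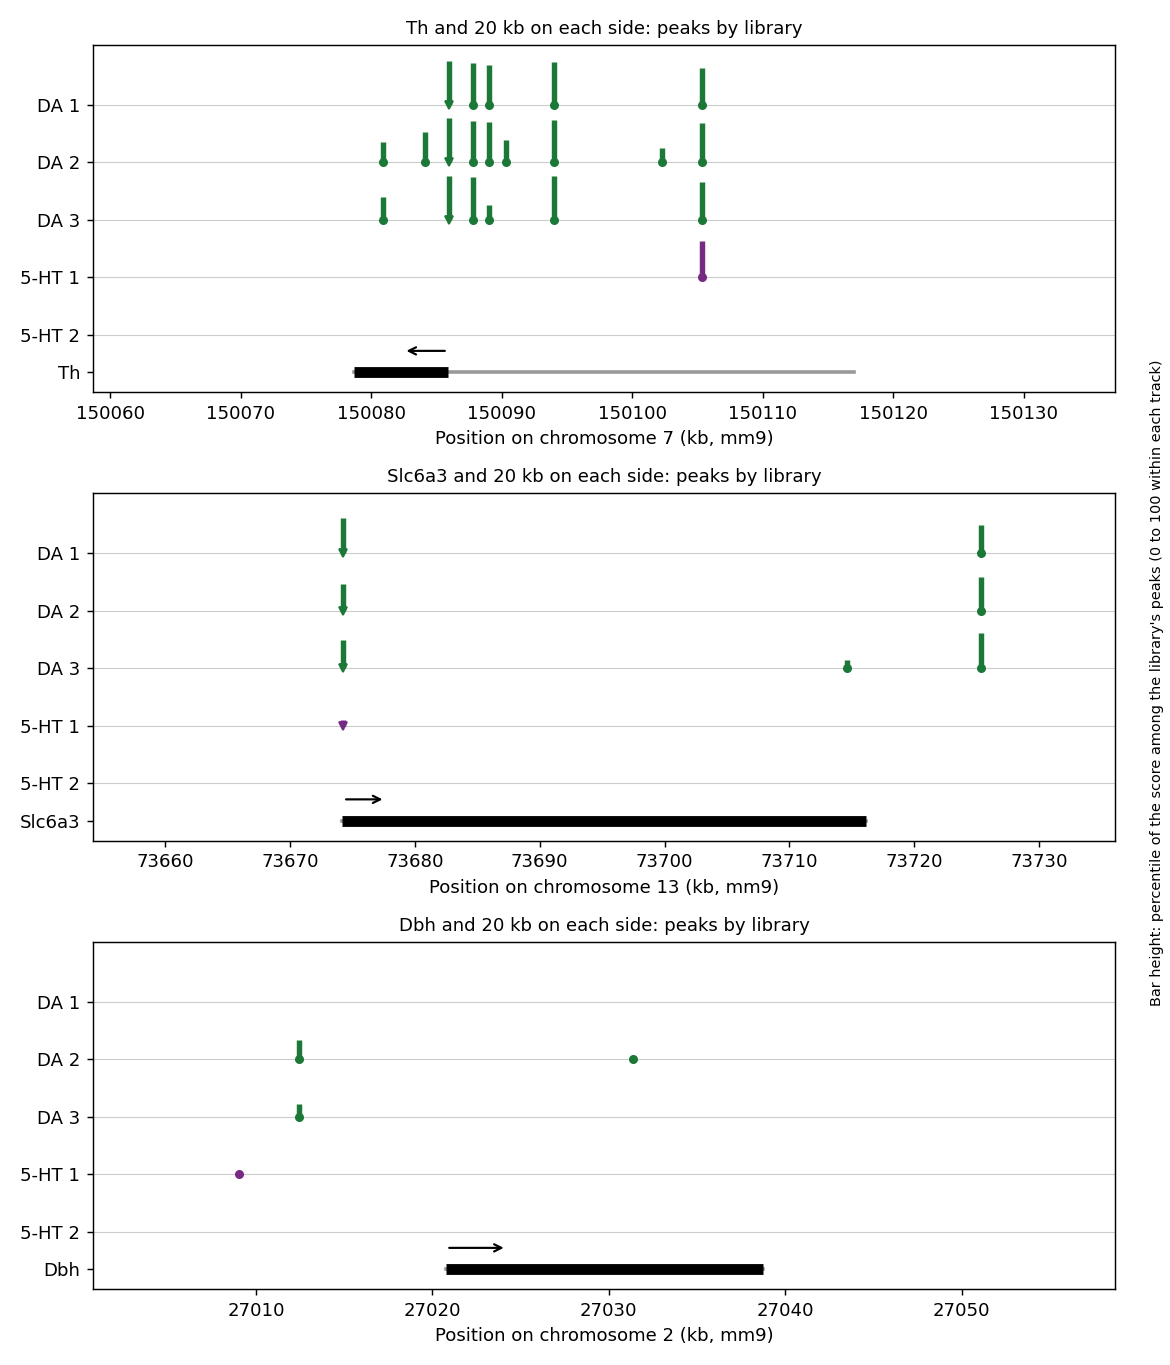
Peaks around *Th*, *Slc6a3* and *Dbh* in each of the 3 DA and 2 5-HT libraries, along the chromosome in kb (mm9), drawn at the centre of each region. Triangles mark promoter regions and circles distal ones, the bar height is the percentile of the score within the library from 0 to 100, the black box is the CCDS transcript with its direction, and the grey line is the extent of all annotated transcripts. *Th* has 5, 9 and 6 peaks in the DA libraries against 1 and 0, while *Dbh* has 0, 2 and 1 against 1 and 0.

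By promoter percentile in DA libraries the order was *Th* (89.3 to 91.7), *Slc6a3* (56.1 to 73.0) and *Dbh* (0 in each), with no overlap between neighbours in that order. In 5-HT libraries the only promoter peak of the 3 genes was that of *Slc6a3* in 5-HT replicate 1. Taking the 3 genes together, 7, 13 and 10 of the 15 regions carried a peak in DA libraries, against 3 and 0 for 5-HT. Of all deposited regions, 40.1%, 70.5% and 71.5% carried a peak in these DA libraries and 29.4% and 17.3% in the 5-HT libraries, so the DA counts lay near the general shares. DA-only regions numbered 5 of 15 with all peaks, against 13.4% of all regions, and 3 at equal numbers, against 6.94% of regions with a peak there. With all peaks they were 4 of the 9 regions of *Th*, 1 of the 3 of *Slc6a3* and 0 of the 3 of *Dbh*, and at equal numbers all 3 were of *Th*.

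The sequences of the 3 promoters are shown because *Th* and *Slc6a3* had peaks there and *Dbh* had none. Each runs from 250 bases upstream of the TSS of the CCDS transcript to 30 bases into the transcript, in the direction of transcription, on mm9. The *Th* promoter is chr7:150085890-150086169 (minus strand), the *Slc6a3* promoter chr13:73673945-73674224 (plus strand) and the *Dbh* promoter chr2:27020503-27020782 (plus strand). Capitals mark matches, on either strand, to the cyclic AMP response element (CRE) TGACGTCA, the GC box GGGCGG, the TATA box TATAAA, the Nr4a word AAAGGTCA, the Pitx word TAATCC, the homeodomain word TAATTA and the forkhead word TGTTTAC.
Th promoter: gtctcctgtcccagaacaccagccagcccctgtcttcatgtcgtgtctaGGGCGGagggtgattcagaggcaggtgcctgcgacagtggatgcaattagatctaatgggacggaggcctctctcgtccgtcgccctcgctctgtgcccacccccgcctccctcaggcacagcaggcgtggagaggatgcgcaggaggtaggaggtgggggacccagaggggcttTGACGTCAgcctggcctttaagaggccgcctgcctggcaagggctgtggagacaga
Slc6a3 promoter: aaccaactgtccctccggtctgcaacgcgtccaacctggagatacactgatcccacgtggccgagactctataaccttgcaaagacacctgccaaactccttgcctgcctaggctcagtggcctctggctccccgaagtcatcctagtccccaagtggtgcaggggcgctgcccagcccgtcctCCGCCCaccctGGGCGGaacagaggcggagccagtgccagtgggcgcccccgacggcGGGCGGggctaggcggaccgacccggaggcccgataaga
Dbh promoter: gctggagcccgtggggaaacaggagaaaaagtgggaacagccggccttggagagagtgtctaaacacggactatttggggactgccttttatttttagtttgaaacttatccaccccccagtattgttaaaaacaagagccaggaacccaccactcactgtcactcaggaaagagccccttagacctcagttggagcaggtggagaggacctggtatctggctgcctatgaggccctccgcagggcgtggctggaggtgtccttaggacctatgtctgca
The *Th* promoter holds a CRE that starts 26 bases upstream of this TSS, and a GC box 201 bases upstream. The CRE word was found in 2.52% of 19473 promoters of the same length, 1 for each gene with a CCDS transcript. The *Slc6a3* promoter holds 3 GC boxes, at 66, 55 and 9 bases upstream, a word found in 47.2% of promoters. The *Dbh* promoter holds none of the 7 words. E-boxes (CANNTG), which 66.1% of promoters hold and which are left in lower case, numbered 1 in *Th*, 4 in *Slc6a3* and 2 in *Dbh*. The G+C content was 63.6% in *Th*, 66.1% in *Slc6a3* and 53.2% in *Dbh*, against a median of 56.4%. None of these words overlapped another. The TATA box was in none of the 3 promoters and in 12.4% of all promoters. A match describes the letters only and shows no binding. The RefSeq promoters (GRCm38.p6) of the 3 genes were all found on mm9, and place the TSS of *Slc6a3* at the same base, that of *Th* 19 bp downstream and that of *Dbh* 274 bp downstream, at 27021027. The *Dbh* sequence shown is therefore not the RefSeq promoter. That promoter, from 250 bases upstream of the RefSeq TSS to 30 bases into the transcript, also holds none of the 7 words and 2 E-boxes, and no deposited region overlapped it or the 1 kb before its TSS.

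Of the DA-only distal regions, 3 held words other than the E-box within their central 260 bases, and these are shown in the direction of transcription of their gene, with the same words in capitals. They lie 3007 and 7745 bp upstream of *Th*, at chr7:150088926-150089185 and chr7:150093906-150094165 (minus strand), and past the 3′ end of *Slc6a3*, at chr13:73725194-73725453 (plus strand).
Th region 3007 bp upstream: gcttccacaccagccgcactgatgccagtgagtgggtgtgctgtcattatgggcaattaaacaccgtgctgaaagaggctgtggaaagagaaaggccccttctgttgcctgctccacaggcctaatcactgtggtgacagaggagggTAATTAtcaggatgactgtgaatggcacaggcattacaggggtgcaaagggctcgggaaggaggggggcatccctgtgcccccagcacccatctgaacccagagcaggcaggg
Th region 7745 bp upstream: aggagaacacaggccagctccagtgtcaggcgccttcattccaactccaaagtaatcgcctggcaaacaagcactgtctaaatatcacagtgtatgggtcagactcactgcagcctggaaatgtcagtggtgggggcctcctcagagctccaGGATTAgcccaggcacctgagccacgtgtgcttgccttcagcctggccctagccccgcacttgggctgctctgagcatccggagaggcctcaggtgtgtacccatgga
Slc6a3 region past the 3′ end: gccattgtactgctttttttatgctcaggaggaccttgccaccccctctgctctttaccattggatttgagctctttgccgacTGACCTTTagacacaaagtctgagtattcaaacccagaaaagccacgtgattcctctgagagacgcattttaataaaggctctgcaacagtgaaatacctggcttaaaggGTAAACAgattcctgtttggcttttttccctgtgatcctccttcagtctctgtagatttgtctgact
The region 3007 bp upstream of *Th* holds 1 homeodomain word, found in 8.45% of the 83968 deposited regions of at least this width when limited to their central 260 bases. The region 7745 bp upstream holds 1 Pitx word, on the strand opposite to *Th*, found in 8.92%. The *Slc6a3* region holds an Nr4a word, found in 2.34%, and a forkhead word, found in 4.76%, both on the strand opposite to the gene. Factors of these families act in midbrain DA neurons, such as *Pitx3*, *Nr4a2* and *Foxa2*, but the words do not show which factor, if any, binds. The region 1305 bp upstream of *Th* and the region 19267 bp upstream, shared with 5-HT replicate 1, held E-boxes and no other of the 8 words. E-boxes were in 76.3% of the central 260 bases of deposited regions.

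Around these genes stand the other genes of the catecholamine pathway, of which 27 were examined at the promoter region with the highest percentiles summed over libraries. Most were open in both cell types. A peak in all 5 libraries was found for 17 of the 27, against 48.1% of protein-coding genes. Peaks in all 3 DA libraries and 1 5-HT library were found for 3 of the 27, near the share of 8.53% of protein-coding genes. DA-only promoters numbered 3 of 27, against 2.13% of protein-coding genes, another 2 genes had a peak in 1 DA library alone and 2 had none. Every DA library stood above both 5-HT libraries for 18 of the 27, against 34.5% of protein-coding genes. The median difference was 25.3 percentile points over the 25 with a promoter peak, against 15.6 for all such genes, and *Th* and *Slc6a3*, at 90.5 and 57.0 points, lay above it.

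Among the genes of synthesis and its cofactor, 5 of 7 had a promoter peak in all 5 libraries, against 48.1% of protein-coding genes. *Ddc*, whose enzyme makes dopamine from L-DOPA and serotonin from 5-hydroxytryptophan, stood at DA percentiles of 66.2, 73.7 and 87.3 and 5-HT percentiles of 37.9 and 16.9. *Gch1*, *Pts*, *Spr* and *Qdpr*, which make or recycle the tetrahydrobiopterin that both tyrosine and tryptophan hydroxylases need, had peaks in all 5 libraries as well. *Qdpr* was nearly level, between 97.2 and 99.7 in the 5 libraries. *Pnmt*, which makes adrenaline, had no promoter peak, like *Dbh*.

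For storage and uptake, *Slc18a2*, the vesicular monoamine transporter of both cell types, stood at DA percentiles of 41.9, 76.4 and 63.6, with no peak in 5-HT replicate 1 and percentile 17.4 in 5-HT replicate 2. *Slc18a1*, the other vesicular monoamine transporter, had a peak in all 5 libraries and was level, with mean percentiles of 92.4 in both groups. Other genes with a TSS in the same region were not looked for, so this peak may not belong to *Slc18a1*. *Slc6a2*, the noradrenaline transporter, had a promoter peak in DA replicate 2 alone, at percentile 31.6. Of the genes of breakdown, *Maoa* had a peak in all 5 libraries, while *Maob* was DA-only, at percentiles of 14.2, 15.5 and 46.1. No pathway gene was DA-only at equal numbers of peaks, where *Maob*, *Lmx1a* and *Hand2* had no promoter peak in any library. The autoreceptor genes *Drd2* and *Adra2a* had peaks in all 5 libraries, with overlap between the groups. At equal numbers *Adra2a* had a promoter peak in both 5-HT libraries and in no DA library.

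The transcription factors of DA neurons were higher in DA libraries for 8 of 8, without overlap, against 34.5% of protein-coding genes, with a median difference of 45.8 percentile points, against 15.6 for all genes with a promoter peak. These percentiles are ranks in peak lists of different lengths, and ranks in lists of equal length are not given for these genes. *Pitx3*, required for midbrain DA neurons and an activator of *Th*, stood at DA percentiles of 93.5, 94.1 and 91.7 and 5-HT percentiles of 61.9 and 8.31. *Nr4a2*, which acts on *Th* and *Slc6a3*, stood at 84.0, 85.6 and 86.4 against 42.4 and 47.7. Both genes had a promoter peak in both 5-HT libraries. That of *Pitx3* in 5-HT replicate 2, with a score of 2.96, was near the lowest score of that library, 2.83. No link of these promoters to that of *Th* was tested. *Lmx1a* was DA-only, at 47.8, 66.4 and 51.8.

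Of the factors of noradrenergic neurons, 1 of 5 was higher in every DA library, beside 34.5% of protein-coding genes, and the median difference was 9.04 points over the 4 with a promoter peak. The 1 was *Hand2*, which was DA-only, at 12.4, 41.7 and 47.0, and the 2 lists of factors were not tested against each other. *Phox2a*, which activates *Dbh*, had a promoter peak in DA replicate 3, at percentile 18.8, and in no other library. *Tfap2b* had none. *Insm1* and *Gata3*, which is used by serotonergic lineages as well, had peaks in all 5 libraries. The mean percentile of *Gata3* was 62.3 in DA and 80.3 in 5-HT libraries, with overlap.

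**Figure D2:**
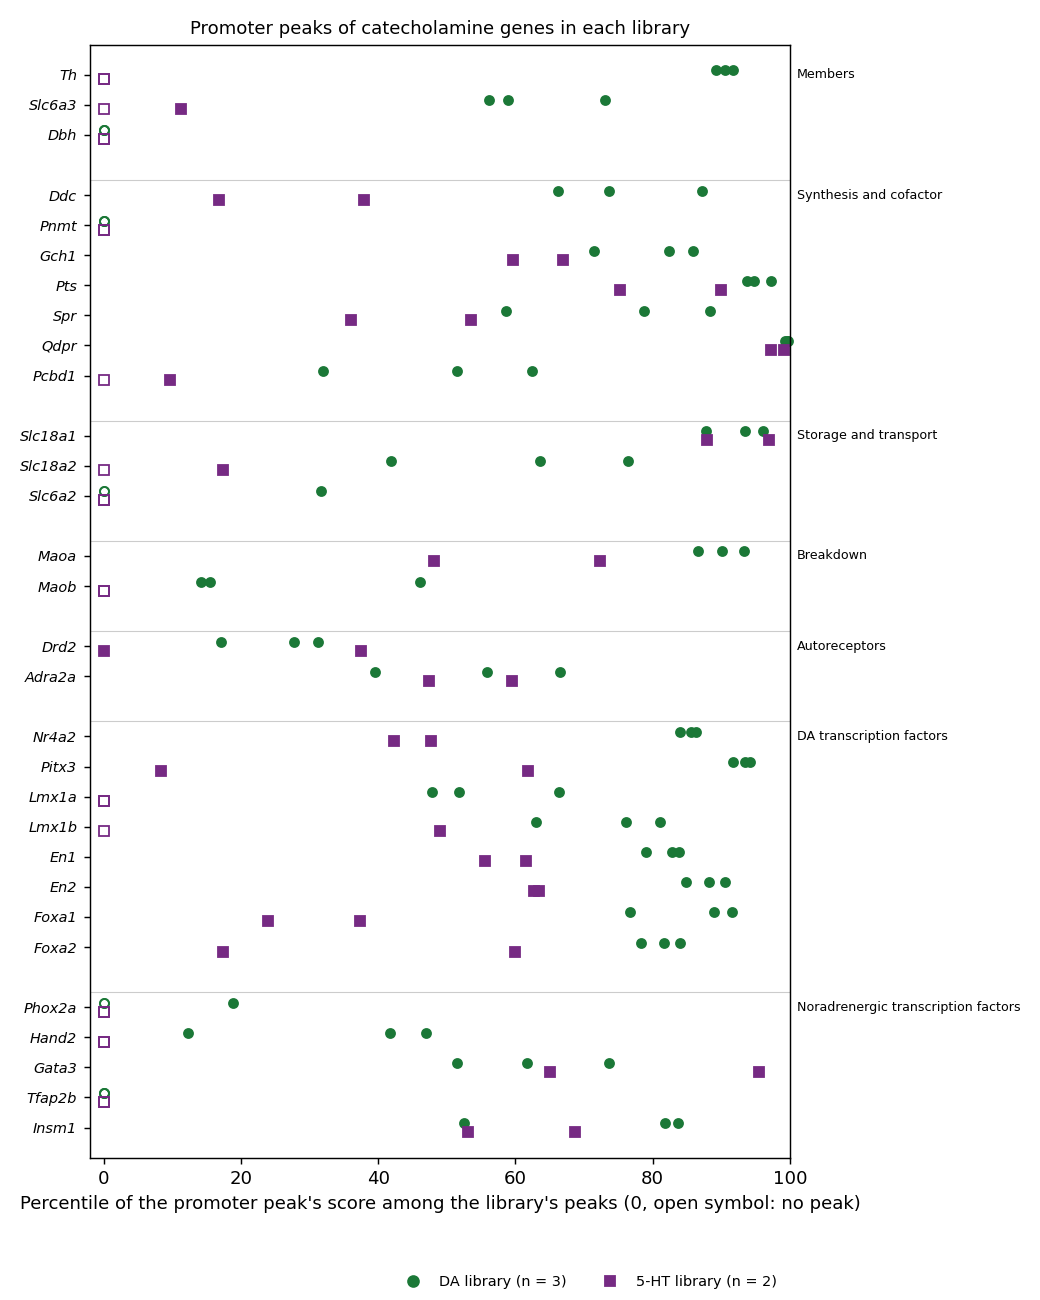
Percentile of the promoter peak among all peaks of each library (horizontal axis, 0 to 100) for *Th*, *Slc6a3*, *Dbh* and 27 genes of the catecholamine pathway by role, with each DA library as a circle and each 5-HT library as a square. Open symbols at 0 are libraries without a peak. The DA values of *Th* lie between 89.3 and 91.7 with no 5-HT peak, and *Dbh* is at 0 in every library.

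The labelled cell types were checked by peaks at the promoters of marker genes. The authors give other evidence, from immunofluorescence and RT-qPCR. Most of their GFP-positive cells held Th protein, and nearly all of their YFP-positive cells held Tph2. In their RNA-seq, GABAergic markers were high in the DA cells, and DA and GABAergic genes were expressed in the 5-HT cells. Besides *Th* and *Slc6a3*, 7 of 7 DA markers had a promoter peak in all 3 DA libraries, against 58.8% of protein-coding genes. The 5-HT libraries had one at 5 and 6 of these 7, against 57.9% and 49.3% of protein-coding genes, so most of these markers had a promoter peak in both cell types. Noradrenergic markers, with *Dbh*, had promoter peaks for 0, 1 and 1 of 4 in the DA libraries and for 0 of 4 in both 5-HT libraries. The peaks were those of *Slc6a2* and *Phox2a* in single DA libraries, while *Dbh* and *Pnmt* had none.

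Serotonergic markers followed the label in part only. Of 6, the DA libraries had promoter peaks for 4, 5 and 4 and the 5-HT libraries for 4 and 2. Over all protein-coding genes these libraries had promoter peaks for 59.7%, 63.6% and 61.9%, and for 57.9% and 49.3%, so with 6 genes the counts lay near the general shares. *Slc6a4*, the serotonin transporter gene, and *Maob* had promoter peaks in all 3 DA libraries and in neither 5-HT library. *Gata2* and *Gata3* had higher mean percentiles in 5-HT libraries, but with overlap between the groups. *Gata2* stood at 41.7 in 5-HT replicate 1 and at 4.20 in DA replicate 2, with no other peak. The means of *Gata3* are given above. *Fev*, the defining factor of 5-HT neurons, had a promoter peak in 5-HT replicate 1 alone, at percentile 30.1. *Tph2*, which makes serotonin, had one in all 5 libraries, at DA percentiles of 90.5, 80.9 and 95.2 and 5-HT percentiles of 87.5 and 46.0. The absence of a peak in these 5-HT libraries, at *Th* as at *Slc6a4*, therefore stands beside fewer sorted cells, few peaks and missing markers. The part of these in the result was not tested.

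Markers of other cell types were also examined, each at its promoter region with the highest summed percentiles. The DA libraries had peaks there for 3, 3 and 3 of 3 GABAergic markers, against 2 and 2 for 5-HT. The marker without a 5-HT peak was *Slc32a1*, which had a peak in 1 5-HT library at another promoter region. At equal numbers of peaks the order was the opposite for *Gad1* and *Gad2*, with promoter peaks in both 5-HT libraries and no DA library. For 4 glial markers the counts were 3, 4 and 4 against 3 and 1, and for 4 vascular markers 1, 3 and 2 against 1 and 0, so that DA replicate 1 and 5-HT replicate 1 were level in both. The shares over all protein-coding genes, 59.7%, 63.6% and 61.9% against 57.9% and 49.3%, also differ in this direction, and the lists were not tested against them. Microglial markers had none in any library. The glutamatergic marker *Slc17a6* stood at 90.7, 95.4 and 97.1 in DA libraries, as high as *Th*, and at 20.2 and 0 in 5-HT libraries, while *Slc17a7* had no promoter peak. *Slc17a6* also had 4 DA-only regions in the gene and 20 kb on each side, and 3 at equal numbers of peaks, as many as *Th*, and its promoter was DA-only at equal numbers. The part of other cells in the values of *Th* and *Slc6a3* was not tested.

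The promoters most like that of *Th*, by Euclidean distance between percentiles over the 5 libraries among 22366 other genes, included those of *Glis2*, *Med16*, *Pdzd9* and *Tyrp1*, at distances of 5.59 to 7.07 percentile points. *Glis2* stood at 88.6, 87.6 and 86.0 in DA libraries with no 5-HT peak. *Tyrp1*, a gene of melanin synthesis, stood at 90.3, 91.9 and 96.3 with no 5-HT peak. *Med16* had peaks in both 5-HT libraries, with scores of 3.37 and 2.87 at percentiles 0 and 2.68. *Pdzd9* had one in 5-HT replicate 2, at percentile 4.24. For *Slc6a3* they were *Lhx9*, *Elf3*, *Epha1*, *Mc1r* and *Tctex1d4*, at distances of 12.9 to 17.8. The genes nearest to *Th* were thus closer to it than those nearest to *Slc6a3* were to *Slc6a3*. *Dbh*, without a promoter peak, was not compared in this way.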

How the data were processed

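ATAC-seq of 3 DA and 2 5-HT libraries was used. RNA-seq was not analysed here. For the deposited files, the authors used Trimmomatic and FastQC for read quality, Bowtie2 for alignment to mm9, Picard against duplicate reads, MACS2 for the peaks of each library, and BEDOPS to join those closer than 100 bp. Tool versions and the peak threshold are not given in the sources used here. The deposited score of each region in each library has no named scale, so it was used as presence or absence and as a percentile within its library.

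Genes, exons and TSSs were those of the GENCODE annotation for mm9, and sequences were read from that genome. RefSeq was used to match 1 older gene symbol and to check the promoter sequences. Two-sided exact permutation tests compared libraries. The *Dbh* promoter percentile was not tested, as no library had a peak there. Regions and genes are not replicates, and libraries from separate sorts were the samples.

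The members and gene lists were chosen with earlier results of these data known. The genes named were *Th*, *Slc6a3* and *Dbh* with every region around them, other genes with a promoter there, the pathway and marker lists, and genes nearest to *Th* and *Slc6a3* in promoter percentile. A few genes of these lists are not reported here, and the counts and medians leave them out. Alternatives were other windows, equal numbers of peaks, scores at or above the library's median, region centres, merged peaks, other promoter definitions, a replicate block and each library left out. Figures were drawn in matplotlib 3.10.9 and values computed in SciPy 1.17.1, pandas 2.3.3 and NumPy 2.4.6 under Python 3.11.15, and the counting was tested on simulated data.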

Additional observations from a re-analysis of the deposited data

How the results depend on the processing

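For *Th* and *Slc6a3*, the mean number of regions with a peak was higher in DA than in 5-HT libraries under every alternative tried. The promoter percentile was also higher under every alternative tried for it, though by 29.6 rather than 57.0 points for *Slc6a3* among promoter peaks. Equal numbers of peaks were not tried for the promoter percentile. At equal numbers the *Th* promoter kept a peak in all 3 DA libraries, and the *Slc6a3* promoter in DA replicate 1 only. Leaving out each library in turn, the difference in regions lay between 5 and 7 for *Th* and between 1.33 and 2.33 for *Slc6a3*, and the promoter difference between 89.9 and 91.1 and between 51.4 and 62.7 percentile points. The *Dbh* difference of 0.5 was 0 at equal numbers of peaks and 0 with scores at or above the median of each library, was 1.5 with 50 kb on each side, and lay between 0 and 1 with a library left out. The value 0 came from leaving out DA replicate 2 or 5-HT replicate 2. The DA-only regions fell from 5 to 3 at equal numbers of peaks and numbered 5 to 7 with a library left out. They numbered 7 without DA replicate 1 or 5-HT replicate 1, where the share over all regions also rose, from 13.4% to 25.0% and 20.8%. Without DA replicate 1, *Th* had 5 of them, *Slc6a3* 1 and *Dbh* 1. Without 5-HT replicate 1, *Th* had 5, *Slc6a3* 2 and *Dbh* 0. With scores at or above the median they again numbered 5, but the *Slc6a3* promoter was among them and the region 3007 bp upstream of *Th* was not. The replicate numbers name separate sorts and do not pair the libraries (correlations of deviations between -0.0149 and 0.0149). With a replicate block over numbers 1 and 2, the differences were 6.5, 1.5 and 0.5 regions for *Th*, *Slc6a3* and *Dbh*, and 91.1 and 58.9 percentile points for the *Th* and *Slc6a3* promoters. The *Dbh* promoter difference was 2.35 points with promoters from 2 kb upstream to 500 bp downstream, from the peak in intron 6 in DA replicate 2, and 0 elsewhere. A percentile among promoter peaks could not be given for it. The window and TSS of the CCDS transcript alone were tried after seeing the data for *Th* and *Slc6a3*, and the window for *Dbh*, and changed no value. The test cannot pass 0.05 with 3 against 2 libraries, so its p says nothing of stability. Unknown read depth and the fewer sorted cells of the 5-HT libraries limit what an absent peak shows.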
